A study of Homo sapiens with 192 samples.

Results

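Bidirectional protein-coding promoters were taken as the peak features on chromosomes 1 to 22 that contain the start of at least 1 protein-coding gene on the plus strand and at least 1 on the minus strand, with gene starts from GENCODE 44 on hg38. Of 76895 features on these chromosomes (80971 in all), 727 met the rule, which is 0.945%. They are compared below with the 6423 features that hold protein-coding starts of 1 strand only, so that bidirectional features make up 10.2% of the 7150 autosomal promoter features. A further 69745 features hold no protein-coding start. The rule used positions only and no measured count.

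The study tagged open chromatin of HAP1, a near-haploid human cell line, with the Tn5 transposase in bulk, and sorted single nuclei into 2 plates of 96 wells (single-nucleus ATAC-seq). Nuclei labeled with concanavalin A-based barcodes (CASB) and unlabeled ones had been pooled, but which nuclei carried a label was not given, and each plate therefore counts as 1 mixed sample of untreated HAP1 cells. With 1 sample per plate, no separate cultures named and no second treatment, no test was possible. The values are therefore a description, and every exact (Clopper-Pearson) 95% interval covers counting error only.

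Plate and well were read from the numbers in the sample titles, which do not name them as such. Of the 96 wells each, 83 of plate 1 and 79 of plate 2 had more than 300 peaks and are called passing nuclei. They held 240092 read pairs in features in plate 1 and 238287 in plate 2, from 345 to 15351 per nucleus with a median of 2068. At this depth a feature missing from a nucleus cannot be called closed there. Wells among 37 to 48, 73 to 84 and 85 to 96 of each plate shared peaks in particular pairs, 48 pairs of wells in all. For features seen in exactly 2 of all wells, the share seen in the 2 wells of such a pair was counted. It was 1 of 10 bidirectional features (10%), 46.9% of one-strand features and 16664 of 23552 features with no protein-coding start (70.8%). The main comparisons of nuclei are therefore also given without these wells.

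In a bidirectional promoter, a pair of neighbouring genes lie head to head and are transcribed away from each other from a shared stretch of open DNA. Such promoters are usually rich in CpG dinucleotides and poor in TATA boxes, and are known for housekeeping genes of DNA repair, mitochondria and translation. In ATAC-seq, the nucleosome-depleted DNA of an active promoter takes up transposase, and the read pairs that fall there mark it as open.

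The stretch between the starts is the DNA that both genes of a head-to-head pair share, and 6 such stretches are shown to give the layout of the promoters named later. They are stretches of 30 to 300 bases, free of annotated exons, that lie in the most widely seen members or in well-known pairs. Each is the hg38 plus strand, read 5′ to 3′ from the start of the minus-strand gene, named first, to that of the plus-strand gene. Capitals mark matches, on either strand, to the motifs of NF-Y, ETS factors, the GC box, the E-box and the TATA box, whose letters are spelled out with the motif results.
FHIP1B/CNGA4: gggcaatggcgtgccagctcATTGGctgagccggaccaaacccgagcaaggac
TPR/ODR4: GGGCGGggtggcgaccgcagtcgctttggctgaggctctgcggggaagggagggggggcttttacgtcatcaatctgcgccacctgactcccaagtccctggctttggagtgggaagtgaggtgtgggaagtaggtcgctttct
PNPLA8+THAP5/DNAJB9: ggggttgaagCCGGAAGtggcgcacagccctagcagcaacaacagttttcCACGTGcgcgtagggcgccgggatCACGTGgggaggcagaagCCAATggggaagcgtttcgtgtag
COL4A4/COL4A3: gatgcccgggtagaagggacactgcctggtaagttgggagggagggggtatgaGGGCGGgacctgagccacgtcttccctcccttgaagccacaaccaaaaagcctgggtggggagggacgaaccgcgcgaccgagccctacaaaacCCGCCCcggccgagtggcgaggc
TMEM258/FADS2+FEN1: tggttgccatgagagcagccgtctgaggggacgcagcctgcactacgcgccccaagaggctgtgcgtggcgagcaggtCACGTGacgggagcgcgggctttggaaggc
TK1/AFMID: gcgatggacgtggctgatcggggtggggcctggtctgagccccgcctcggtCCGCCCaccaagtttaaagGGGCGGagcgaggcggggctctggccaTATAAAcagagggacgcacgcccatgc

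The stretch of FHIP1B/CNGA4 lies at chr11:6234712-6234764 (53 bases), that of TPR/ODR4 at chr1:186375694-186375837 and that of PNPLA8+THAP5/DNAJB9 at chr7:108569751-108569866. The well-known pairs lie at chr2:227164454-227164623 (COL4A4/COL4A3, 170 bases), chr11:61792803-61792910 (TMEM258/FADS2+FEN1) and chr17:78187234-78187357 (TK1/AFMID). No annotated exon lies in them, and neither gene's annotated body covers them. Their GC content ran from 62.1% to 67.7%, and the number of CpG dinucleotides from 3 in FHIP1B/CNGA4 to 12 in COL4A4/COL4A3. PNPLA8+THAP5/DNAJB9 held the most motif matches, with 2 E-boxes, 1 ETS motif and 1 NF-Y motif. TK1/AFMID was the only one of the 6 with a TATA box.

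Bidirectional promoters were seen in somewhat more nuclei than promoters of 1 strand, in both plates. A bidirectional feature was seen in 11.1 of the passing nuclei of both plates on average, with a median of 9, quartiles of 6 and 14, and a range from 1 to 53. A one-strand feature was seen in 9.59 nuclei on average, with a median of 8 and quartiles of 5 and 12, and a feature with no protein-coding start in 4.4, with a median of 3. The ranges of the classes overlapped almost entirely, since one-strand features also reached 53 nuclei.

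By plate, the mean number of nuclei per feature was 5.36 for bidirectional and 4.75 for one-strand features among the 83 nuclei of plate 1, and 5.71 and 4.84 among the 79 nuclei of plate 2. The ratio of these means was 1.13 in plate 1, 1.18 in plate 2 and 1.15 over both. The ratio of medians was 1 in plate 1 and 1.25 in plate 2, where medians can move only in whole nuclei. In read pairs, a bidirectional feature held 13.8 on average and a one-strand feature 11.8, a ratio of 1.17 (1.14 in plate 1 and 1.2 in plate 2). Without the wells that shared peaks, 91 nuclei were left, and the means were 5.6 and 4.8 nuclei per feature, a ratio of 1.17.

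At least 10 passing nuclei showed 329 of the 727 bidirectional features, or 45.3% (41.6 to 49). The same held for 37.3% of one-strand features (36.1 to 38.5) and for 11.4% of all autosomal features. At least 20 nuclei showed 95 bidirectional features (13.1%), against 8.73% of one-strand and 1.83% of all features. At least 5 nuclei showed 84.6% of bidirectional features, 79.4% of one-strand and 35.8% of all features. Almost all bidirectional features, 686 or 94.4%, were seen in both plates, against 92.3% of one-strand features and 56.4% of all features. Only plate 1 showed 18 of them and only plate 2 showed 23.

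**Figure D1:**
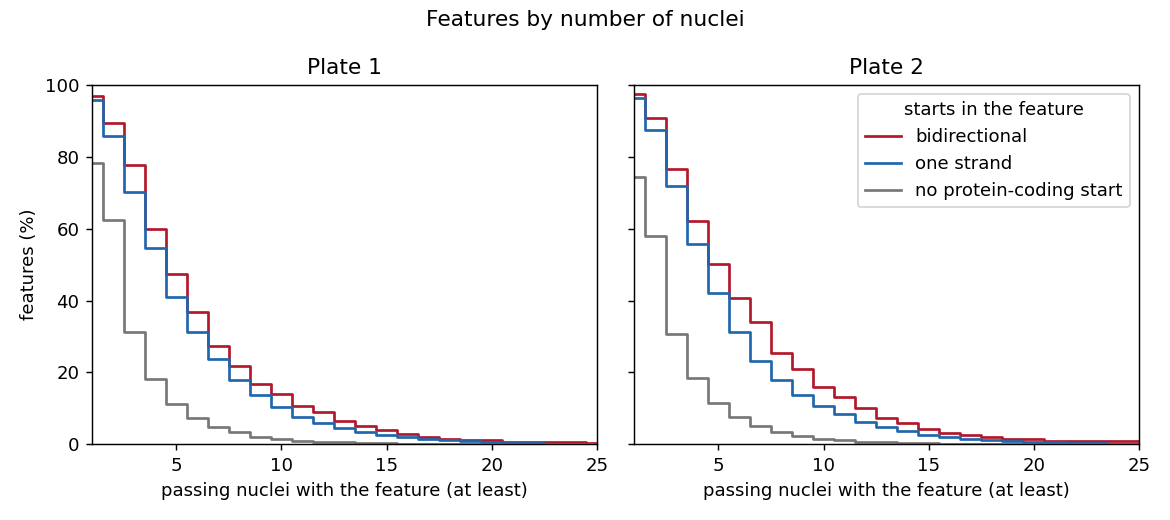
Share of features (%, y axis) seen in at least the number of passing nuclei on the x axis, for bidirectional, one-strand and other autosomal features, with plate 1 (83 nuclei) on the left and plate 2 (79 nuclei) on the right. In both plates the bidirectional curve lies a little above the one-strand curve at intermediate numbers of nuclei, and both lie far above features with no protein-coding start.

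The same order was seen inside most single nuclei. The members took 2.02% of the read pairs in features in plate 1, 2.18% in plate 2 and 2.1% over both. In the 91 nuclei outside the wells that shared peaks they took 2.35%. Per nucleus this share ran from 0.399% to 3.07% with a median of 1.89% in plate 1, and from 0.243% to 3.58% with a median of 2.22% in plate 2, and a nucleus showed a median of 29 and 37 members, respectively. Of the read pairs in promoter features, a nucleus had a median of 11.3% in bidirectional ones in plate 1 and 12% in plate 2. This lay above the 10.2% of promoter features that are bidirectional in 61 of 83 and 69 of 79 nuclei. In tertiles of depth, 54 nuclei each, the mean share of nuclei with a feature was 1.94%, 4.84% and 13.7% for bidirectional features, and 1.61%, 4.27% and 11.9% for one-strand features, so that the ratio was 1.21 in the shallowest tertile, 1.13 in the middle and 1.15 in the deepest. Outside the wells that shared peaks, these ratios were 1.19, 1.14 and 1.17. A feature that was present in a nucleus mostly held a single read pair in both classes, in 81.3% of cases for bidirectional and 82.4% for one-strand features.

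Base composition differed little between the classes of promoters. The median GC content of the 1001 bases of a feature was 61.2% for bidirectional features (quartiles 57.3% and 65.8%), 62.2% for one-strand features and 40.5% for features with no protein-coding start. The median ratio of observed to expected CpG was 0.785, 0.784 and 0.201, respectively. Bidirectional features were seen in more nuclei than one-strand features in each quintile of GC content over both plates, with ratios of 1.19, 1.17, 1.12, 1.15 and 1.02 from the lowest to the highest quintile. The highest quintile (68.1% to 82.8% GC) turned direction in plate 1, where the means were 4.07 and 4.2 nuclei and the ratio 0.968. Weighted over the quintiles, the ratio was 1.14 (1.11 in plate 1 and 1.16 in plate 2). Among the 91 nuclei outside the wells that shared peaks, the quintile ratios were 1.23, 1.15, 1.14, 1.11 and 1.1. Features of both classes were seen in the fewest nuclei at the highest GC content.

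**Figure D2:**
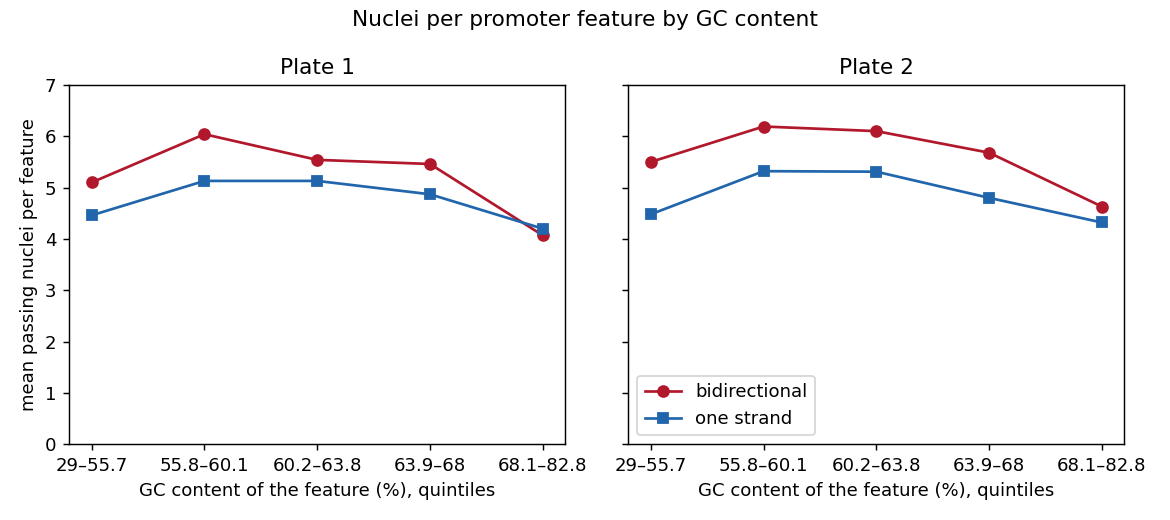
Mean number of passing nuclei per feature (y axis) for bidirectional (circles) and one-strand (squares) promoter features in quintiles of GC content (x axis, %), by plate. Bidirectional features are higher in 4 of 5 quintiles in plate 1, with 4.07 against 4.2 nuclei in the highest quintile, and in 5 of 5 in plate 2.

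A bidirectional feature holds more starts, and 34.8% of bidirectional against 18.5% of one-strand features had a start within 45 bases of their centre. Within quintiles of that distance the ratio was between 1.04 and 1.23, and 1.13 when weighted over them. Holding several starts on the same strand did not go with more nuclei, since the 180 one-strand features with at least 2 starts were seen in 9.14 nuclei on average and the 6243 with 1 start in 9.6. The 1103 one-strand features that also hold the start of a long noncoding RNA (lncRNA) on the other strand were seen in 11.2 nuclei on average, with a median of 9, close to the 11.1 and 9 of bidirectional protein-coding features. By plate they were seen in 5.48 and 5.68 nuclei. The 5320 one-strand features without such a start were seen in 9.26 nuclei (4.6 and 4.66 by plate). Without the wells that shared peaks the means were 5.67 with an opposite lncRNA start and 4.62 without one, beside 5.6 for bidirectional features.

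The members differed in how their starts lie. In 527 (72.5%) the minus-strand start lay left of the plus-strand start, so that the genes diverge without overlap. In 25.9% the transcripts overlap at their 5′ ends, and in 12 with several starts both layouts occurred. The distance between the nearest opposite starts had quartiles of 72 and 254 bases and ranged from 1 to 951, and its median among divergent pairs was 120. In 585 features (80.5%) the starts lay within 300 bases of each other, and in 255 (35.1%) within 100. The features are 1001 bases wide, so no pair farther apart could be a member. The centre of the feature, which is the peak summit, lay between the starts in 306 features (42.1%), and its median distance from their midpoint was 100 bases.

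Divergent features were seen in 11.5 nuclei on average (5.52 in plate 1 and 5.95 in plate 2) and overlapping ones in 9.85 (4.78 and 5.06), the latter close to the one-strand value of 9.59. Among divergent pairs the mean was higher where the starts lay farther apart, from 10.2 nuclei at 0 to 100 bases (217 features) to 11.9 at over 100 to 200, 12.7 at over 200 to 400 (110) and 13.8 at over 400 to 1000 (26). Plate 1 gave 4.86, 5.77, 6.25 and 6.31, and plate 2 gave 5.35, 6.12, 6.49 and 7.54. The medians over both plates were 8, 9, 10 and 9.5, so the widest bin stands higher in its mean only. Overlapping pairs gave 11.4, 9.88, 9.42 and 9.49 nuclei in the same bins with no such order. Outside the wells that shared peaks, divergent features were seen in 5.81 and overlapping ones in 4.95 nuclei on average, and divergent pairs gave 5.12, 5.98, 6.7 and 6.69 in the bins of distance. Features whose centre lay between the starts were seen in 11.5 nuclei on average and the others in 10.7, with a median of 9 in both.

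**Figure D3:**
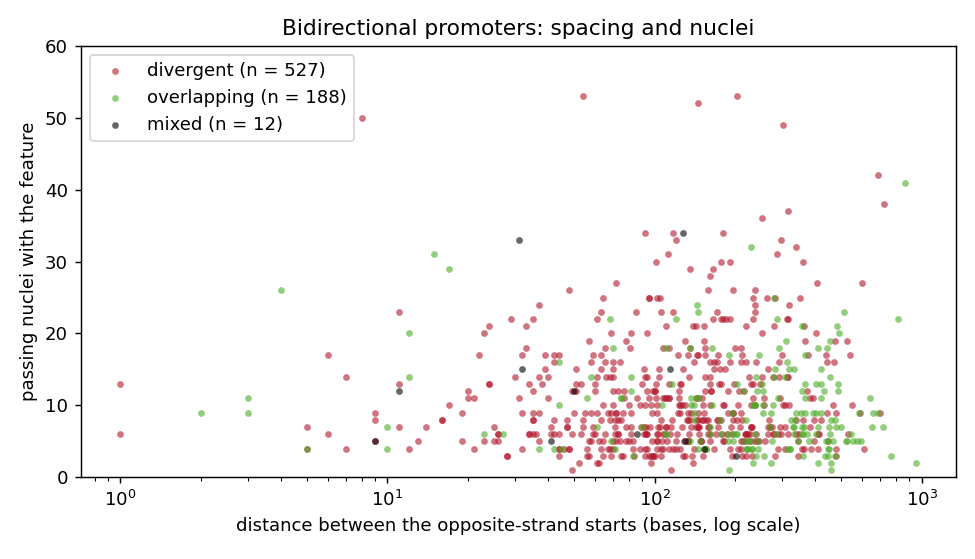
Number of passing nuclei with the feature (y axis) against the distance between the nearest opposite-strand starts (x axis, bases, log scale) for the 727 bidirectional features, coloured by layout. Most starts lie within 300 bases, and every distance holds features seen in few nuclei, while those above 40 nuclei range from 8 to 867 bases apart.

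Genes with a close divergent neighbour had their start in a peak more often than other genes. Of the 1659 autosomal protein-coding genes whose nearest divergent protein-coding start lay 1 to 1000 bases away, 1135 (68.4%, 66.1 to 70.6) had their own start in a feature, against 6295 of the 16898 (37.3%, 36.5 to 38) whose nearest one lay over 5000 bases away. Counting only features seen in the passing nuclei of 1 plate, the shares were 66.2% against 35.7% in plate 1 and 67.1% against 35.9% in plate 2. By distance the share was 67.9% at 1 to 100 bases, 74.3% at over 100 to 200, 72% at over 200 to 400 and 50.2% at over 400 to 1000. At over 1000 to 5000 bases it was 28.7% (25 to 32.7, 554 genes), below that of genes whose nearest divergent start lay over 5000 bases away. A single peak can cover both starts of a close pair, so genes of a pair are not independent.

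Motifs were searched as fixed letters on both strands in the 301 bases around the centre of each feature, and no motif contains another. A match is a description of the letters and not of a bound factor. The widest gap between the promoter classes in percentage points over all features was that of the ETS motif CCGGAAG, with a match in 25% of members (21.9 to 28.3), against 14.8% of one-strand features (13.9 to 15.7) and 2.78% of all autosomal features. In each quintile of GC content it was more frequent in bidirectional features, from 28.1% against 13.9% in the lowest to 19.2% against 9.82% in the highest. The NRF1 motif TGCGCATGC, bound by a regulator of nuclear genes for mitochondria, matched 3.71% of members (2.46 to 5.36), 2.07% of one-strand features (1.74 to 2.45) and 0.356% of all. YY1 (AAGATGGC) matched 5.36%, 3.6% and 1.57%, the palindrome CTCGCGAG 2.48%, 1.53% and 0.246%, and ACTACAATT, part of the ZNF143 site, 1.38%, 0.514% and 0.304%. For each of the 3 the exact intervals of the promoter classes overlapped.

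The GC box GGGCGG matched 73% of members and 71.5% of one-strand features, against 15.6% of all features. Its direction was mixed across the quintiles of GC content. In the lowest quintile the shares were 56.3% of members and 40.2% of one-strand features. From the next quintile to the highest they were 65.7% and 66%, 71.8% and 78%, 88.1% and 83.8%, and 87.5% and 89.7%. The CRE motif TGACGTCA matched 3.3%, 2.6% and 0.486%, and the E-box CACGTG 10.2%, 9.06% and 3.96%. TATAAA was rarer in bidirectional features, at 2.61% (1.58 to 4.05), than in one-strand features, at 4.09% (3.62 to 4.61), with intervals that overlapped, and both were far below the 23.8% of all features, whose median GC content was 41.5%. The AP-1 motif TGAGTCA likewise matched 1.65%, 2.26% and 5.78%. CCAAT, only 5 letters long, matched 40.7% of members (37.1 to 44.4), 35.3% of one-strand features and 36.4% of all features.

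Members with CCAAT were seen in more nuclei than members without it, 13.1 against 9.68 on average. The same direction held in all 5 quintiles of GC content, with 12.2 against 9.4 nuclei in the lowest and 9.84 against 8.07 in the highest, and also among one-strand features, with 10.9 against 8.87. Among the 91 nuclei outside the wells that shared peaks, the members' means were 6.5 and 4.99. The 19 members with TATAAA were seen in 7.37 nuclei on average and the others in 11.2. Members with and without the ETS motif had means of 11.2 and 11 nuclei, with both directions among the quintiles of GC content, from 13 against 9.67 in the lowest to 10.4 against 12.9 in the next. Without the wells that shared peaks, members with and without TATAAA had means of 4.05 and 5.65 nuclei, and those with and without the ETS motif 5.69 and 5.57.

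**Figure D4:**
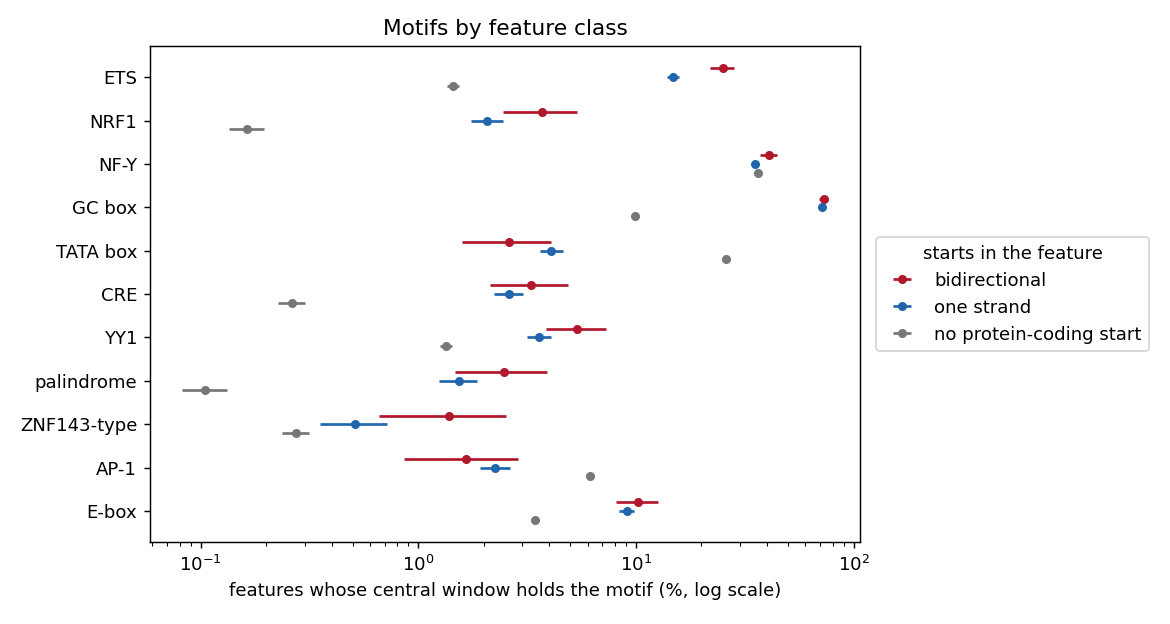
Share of features (%, x axis, log scale) whose central 301 bases hold each motif on either strand, for bidirectional, one-strand and other autosomal features, with exact 95% intervals. ETS shows the widest gap between the promoter classes in percentage points (25% against 14.8%), while the overall shares of GC box (73% and 71.5%), CRE (3.3% and 2.6%) and E-box (10.2% and 9.06%) lie close together.

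The 12 most widely seen members were led by NUDCD1/ENY2 and FHIP1B/CNGA4, each seen in 53 nuclei. NUDCD1/ENY2 on chromosome 8 (109333884 to 109334884) was seen in 28 of 83 nuclei in plate 1 and 25 of 79 in plate 2, with 90 read pairs, and ENY2 is a subunit of the SAGA and TREX-2 complexes. FHIP1B/CNGA4 on chromosome 11 (6234259 to 6235259) was seen in 26 and 27 nuclei with 80 read pairs. It pairs a gene for endosome transport with one for an olfactory ion channel subunit, 54 bases apart. TPR/ODR4 on chromosome 1 (186374867 to 186375867) was seen in 25 and 27 nuclei with 91 read pairs, and TPR is a protein of the nuclear pore basket. TRMT1L/SWT1, also on chromosome 1, was seen in 22 and 28 nuclei with starts only 8 bases apart. PDCD10/SERPINI1 on chromosome 3, which joins the gene for cerebral cavernous malformation protein 3 to that for neuroserpin, was seen in 24 and 25.

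These first 5 were each seen in 26.5% to 35.4% of the nuclei of either plate, and in 19 to 25 of the 91 nuclei left without the wells that shared peaks. There NUDCD1/ENY2, whose feature overlaps another, was the lowest of the 5 with 19 nuclei. FHIP1B/CNGA4 and TPR/ODR4 were the highest of them with 25 each. CEP170/SDCCAG8, a pair of centrosomal protein genes whose starts lie 686 bases apart, was seen in 20 and 22 nuclei. CARS2/ING1 came next with 13 and 28, followed by KCTD9/CDCA2 with 20 and 18 (CDCA2 targets protein phosphatase 1 to chromatin) and ABHD17B/C9orf85 with 17 and 20. AZI2/ZCWPW2 was seen in 16 and 18 nuclei, and PNPLA8+THAP5/DNAJB9, which includes an ER chaperone gene, in 18 and 16. The last place was shared, since 4 members were seen in 34 nuclei and ties were taken in genome order. Of the 12, 10 were divergent, beside 72.5% of all members. At the other end, MTX3/THBS4, HAGH/FAHD1, POLDIP2/TMEM199 and ANKRD54/EIF3L were each seen in 1 passing nucleus, with 2 to 4 read pairs.

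Of 26 gene pairs listed as bidirectional from textbook knowledge, 13 were members, and for the other 13 no feature held both gene starts. The list can hold pairs that do not lie head to head by the annotated gene starts. RECQL was listed with a gene other than GOLT1B, its divergent partner among the members. The 13 pairs not found are therefore not a count of shared promoters without a peak. NPAT/ATM, with the kinase gene of the response to double-strand breaks and a coactivator gene of histone transcription, was seen in 12 and 15 nuclei of plates 1 and 2. COL4A4/COL4A3, with a pair of basement membrane collagen genes, was seen in 12 and 11. Both lay above the member median of 9 nuclei in total, as did CARS2/ING1 and the next 4 pairs. PRKDC/MCM4, which joins a gene of end joining to one of the replicative helicase, was seen in 10 and 4, and GART/SON, with purine synthesis and splicing genes, in 7 and 7. TMEM258/FADS2+FEN1, with a flap endonuclease gene, was seen in 6 and 5 nuclei, and HARS1/HARS2, the cytosolic and mitochondrial histidyl-tRNA synthetases, in 3 and 7.

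The last 4 well-known pairs described here lay at or below the median. TK1/AFMID, whose stretch between the starts holds the TATA box shown above, was seen in 5 and 4 nuclei, and MCM7/AP4M1 in 2 and 7. SIRT3/PSMD13 was seen in 5 and 1, and SARS2/MRPS12, with genes of a mitochondrial tRNA synthetase and a mitochondrial ribosomal protein, in 4 and 1. In both of the last the exact intervals of the plates overlap.

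**Figure D5:**
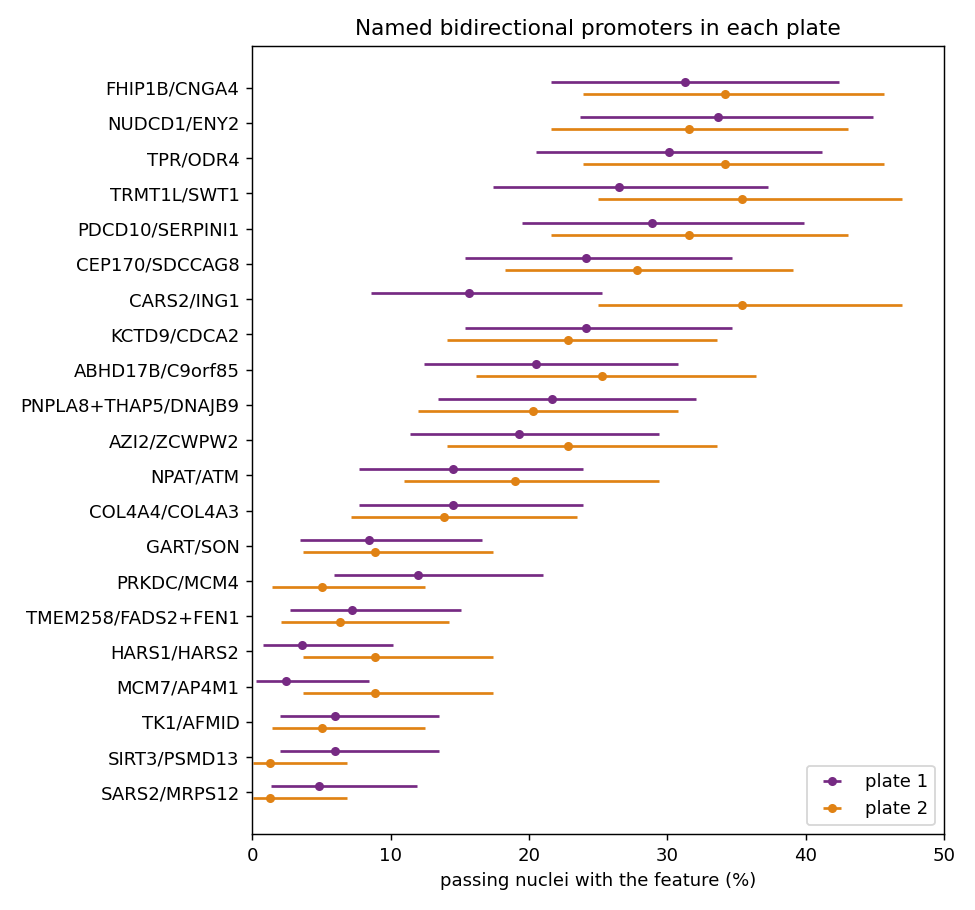
Share of passing nuclei with the feature (%, x axis) in plate 1 and plate 2, with exact 95% intervals, for 11 of the 12 most widely seen bidirectional promoters and 11 of the 13 well-known pairs (CARS2/ING1 is in both sets). The intervals of the plates overlap in every pair shown, and CARS2/ING1 shows the widest gap, 15.7% against 35.4%.

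Few members differed between the plates. Only 1 member differed by at least 10 percentage points towards plate 1 (0.138%, against 0.131% of all autosomal features and 0.467% of one-strand features) and 11 did so towards plate 2 (1.51%, against 0.338% of all and 1.18% of one-strand features). Features seen in few nuclei cannot reach such a difference. Taking both directions together, it was found in 2.63% of members and 1.49% of one-strand features seen in 10 to 14 nuclei, 4.88% and 6.45% at 15 to 19, 4.35% and 8.03% at 20 to 29, and 3.85% and 10.4% at 30 to 60. These shares rest on 4, 4, 3 and 1 members. Outside the wells that shared peaks, among 48 and 43 nuclei, 13 members (1.79%) differed by as much towards plate 1, against 0.823% of all and 2.23% of one-strand features, and 15 (2.06%) towards plate 2, against 0.384% and 1.42%. CARS2/ING1, which joins a mitochondrial cysteinyl-tRNA synthetase gene to a gene for a reader of histone H3 methylation, was seen in 15.7% of nuclei in plate 1 (8.61 to 25.3) and 35.4% in plate 2 (25 to 47). HACL1/BTD was seen in 7.23% and 21.5%, and STARD6/C18orf54 in 2.41% and 15.2%. The other direction was led by TM2D2/ADAM9, with 16.9% in plate 1 and 5.06% in plate 2, followed by ENSG00000287856/TSNAX+TSNAX-DISC1 with 12% and 2.53% and NRL/DCAF11 with 18.1% and 8.86%. These are the extremes of 727 members and were chosen for their difference.

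By function, the mean number of nuclei over members lay below the 11.1 of all members in 6 of 8 lists (histones, cytosolic and mitochondrial ribosomal proteins, the respiratory chain, the proteasome and zinc finger genes) and above it for DNA repair and replication and for aminoacyl-tRNA synthetases. Without the wells that shared peaks, histones turned from below to above the mean of all members (6 against 5.6 nuclei), and DNA repair and replication equalled it at 5.6. The lists were matched by symbol, and 45.3% of all members reached 10 nuclei. The 45 features with a DNA repair or replication gene were seen in 11.6 nuclei on average, with a median of 10, and 23 of them (51.1%) reached 10 nuclei. Their one-strand counterparts (70 features) had a mean of 10.8, and 45.7% reached 10 nuclei. RECQL/GOLT1B, with a helicase gene, led this list with 17 and 14 nuclei in plates 1 and 2. The 8 features with an aminoacyl-tRNA synthetase gene had a mean of 16.8 and a median of 12 nuclei, against a mean of 11.5 for 18 one-strand features, and 75% reached 10 nuclei, against 55.6% of the latter. CARS2/ING1, with 13 and 28 nuclei, had the most of them.

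Features with a mitochondrial ribosomal protein gene (15) had a mean of 8.6 nuclei, against 9.56 for 36 one-strand features, and 26.7% reached 10 nuclei, against 38.9%. MRPL50/ZNF189 led them with 11 and 14 nuclei, followed by PSMA2/MRPL32 with 5 and 11. The 15 features with a respiratory chain or ATP synthase gene had a mean of 8.07, against 8.56, and 26.7% reached 10 nuclei, against 30.6%, led by KIN/ATP5F1C with 3 and 11 and COX11/STXBP4 with 7 and 6. In both lists the mean of bidirectional features lay below that of one-strand features, although the medians were 7 and 7.5 in the first list and 7 and 6 in the second.

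Cytosolic ribosomal protein genes gave 10 bidirectional features with a mean of 6.7 nuclei, against 7.71 for 38 one-strand features, and 0 of them reached 10 nuclei, against 28.9%. The symbol pattern missed RPL36AL/MGAT2, noticed after its values were seen, with 10 and 7 nuclei. With it the mean of 11 features was 7.64 nuclei, and 1 reached 10. CLHC1/RPS27A (4 and 5) and RPS29/LRR1 (6 and 3) had the most of the matched features, with 9 nuclei each. The 4 proteasome features had a mean of 8, against 7.58, with 25% of both classes reaching 10 nuclei. PSMA2/MRPL32 led them, and 2 features tied for the next place with 6 nuclei each. These were PSMB8/PSMB9, a pair of immunoproteasome genes, with 3 and 3 nuclei, and SIRT3/PSMD13 with 5 and 1. PSMB8/PSMB9 is a member by its annotated gene starts, which lie 543 bases apart in the overlapping layout. Among the 26 listed pairs PSMB9 stood with another gene, and no feature held both starts of that pair. Replication-dependent histone genes, which lie in clusters of head-to-head pairs, gave 7 features of 6 pairs with a mean of 9.71, against 7.28 for 25 one-strand features, and 71.4% reached 10 nuclei, against 16%. H2BC11/H2AC11 (6 and 7) led them, followed by H2AC21/BOLA1 (4 and 7) and H2BC8/H2AC8 (5 and 6) with 11 nuclei each. The 21 features with a zinc finger gene had a mean of 8.81, against 9 for 226 one-strand features, and a median of only 5, with 28.6% against 37.2% reaching 10 nuclei and DOCK4/ZNF277 at 16 and 15 nuclei. Among the 91 nuclei outside the wells that shared peaks, the means of bidirectional and one-strand features turned direction for the respiratory chain (4.27 and 4.17) and zinc finger genes (4.9 and 4.35). The lists hold few members each, and no difference between lists was tested.

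Across the chromosomes the ratio of bidirectional to one-strand features was above 1 on 16 of 22. It was highest on chromosome 8 (31 members, means of 16.3 and 9.77 nuclei, ratio 1.66) and chromosome 13 (18 members, 15.7 and 9.69, ratio 1.62), and lowest on chromosome 22 (10 members, 4.3 and 4.69, ratio 0.916). Chromosomes 19 and 22 had the members seen in the fewest nuclei, with means of 5.08 and 4.3, and their one-strand features were also low, at 5.26 and 4.69. NUDCD1/ENY2 and KCTD9/CDCA2 are on chromosome 8 and CARS2/ING1 is on chromosome 13, and how far these features carry the 2 ratios was not tested. Without the wells that shared peaks the ratio was above 1 on 17 chromosomes, with 1.67 on chromosome 8, 1.69 on chromosome 13 and 0.91 on chromosome 22, and the lowest was 0.896 on chromosome 16.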

How the data were processed

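Plate-based snATAC-seq of HAP1 nuclei gave counts of read pairs. By their methods, the authors trimmed the reads with fastp, set CASB reads aside, aligned the others to hg38 with bowtie2, dropped mitochondrial, low-quality and duplicated reads, and called peaks with MACS2 on the wells of both plates pooled. The deposited counts come from featureCounts (version 1.6.0), per feature and well, and were not normalized. Pairs count in every feature they overlap, and 186 members overlap another feature. A total of 0 columns of counts were left unused.

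Peaks seen in more than 1 well were kept to choose nuclei, and nuclei with more than 300 such peaks passed. Doublets were not called, since nuclei were sorted singly. A nucleus shows a feature with at least 1 read pair. The 727 members hold 1508 starts and 701 distinct pairs, since 26 pairs lie in 2 overlapping features each. Starts and gene types come from GENCODE 44, and sequences from the hg38 reference.

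The members and lists were chosen with earlier results of these data known. Named were the 12 members seen in the most and the 4 in the fewest nuclei, the 3 with the largest plate difference each way, members among 26 listed pairs, and the 2 most seen of each of 8 gene lists, of which 4 members are not reported here. Alternatives covered wells, depth (600 read pairs), start definition, overlap, orientation, plates and composition. The scripts were tested on simulated data. They ran in Python (version 3.11.15) with SciPy 1.17.1, NumPy 2.4.6 and pandas 2.3.3, and plots were drawn with matplotlib 3.10.9.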

Additional observations from a re-analysis of the deposited data

Results flagged for a closer look

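Chromosome X lies outside the comparisons of the report. It held 24 features with protein-coding starts of both strands, which were seen in 15.5 passing nuclei on average, with a median of 13 and a range from 1 to 44. By plate the mean was 7.46 and 8 nuclei, and the 295 one-strand features of chromosome X were seen in 10.1 on average. The 30 wells that did not pass were also left out of the report. They held 89 read pairs in bidirectional features, out of 4788 in all features (1.86%), spread over 72 members and 24 wells, while 6 of these wells held 0. Pooled over passing nuclei the share was 2.1%.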

How the results depend on the processing

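Of 38 alternatives over the reported summaries, 27 stayed within the spread between plates, the exact interval or 1.5 times the count, 11 moved beyond it and 0 reversed. For the ratio of nuclei, each plate alone stays within the spread between plates by construction. Counts, shares and nuclei per feature have no direction that could reverse. All 17 alternatives to the ratio of mean nuclei per feature (1.15) lay above 1, from 1.12 to 1.22. It was 1.22 with any transcript start, 1.2 with divergent pairs only and 1.2 against one-strand features without an opposite lncRNA start. The last of these, and the comparisons within quintiles of CpG and of distance and tertiles of depth, against one-strand features with no opposite protein-coding start within 1000 bases, the nuclei per feature in other wells, and the other values without the wells that shared peaks, were added after seeing the data.

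The share of members seen in at least 10 nuclei depends by construction on how many nuclei and read pairs are counted. It was 16.1% without the wells that shared peaks (10.7% of one-strand and 2.46% of all autosomal features), 1.93% after thinning to 600 read pairs (0.996% and 0.22%), 14% in plate 1 alone (10.3% and 2.29%) and 16% in plate 2 alone (10.6% and 2.45%), while 84.6% reached 5 nuclei (79.4% and 35.8%) and 13.1% reached 20 (8.73% and 1.83%). With any transcript start, the members took 3% of read pairs. Without the wells that shared peaks they took 2.35%, above the share in either plate, and this setting is not among the 38 alternatives. Without the shared wells, a member was seen in 5.6 nuclei. No paired analysis was possible because each plate is 1 sample and no result comes from a test.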
